A study of Mus musculus with 6 samples.

Results

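The genes described here encode the subunits of the 5 enzyme complexes of oxidative phosphorylation, measured in CD4 T cells of the mouse lung. They were taken by symbol, as every gene whose name begins Nduf followed by a, b, c, s or v and a digit, the genes Sdha to Sdhd, and the genes whose names begin Uqcr, Cox4 to Cox8 or Atp5. Of 22180 genes with a probe set of their own, 80 matched: 33 of complex I, 4 of complex II, 7 of complex III, 17 of complex IV, 17 of ATP synthase and 2 pseudogenes (Atp5c1-ps and Uqcrh-ps1). No filter on low signal was used, so all 80 were tested, and the 78 that are not pseudogenes are called subunit genes below. A further 9 matching symbols lay only on probe sets that carry several symbols, and these were not analysed here.

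Wild-type mice received either house dust mite (HDM), an allergen source that provokes allergic airway inflammation, or PBS, the saline vehicle, by sensitisation and challenge. CD45+ CD4+ CD11b- F4/80- cells were sorted from digested lung, so naive, effector, regulatory and memory cells were measured together. RNA of 3 HDM and 3 PBS samples was hybridised to Affymetrix whole-transcript arrays, 1 array per sample, and the titles call the samples biological replicates. The labels do not give the strain, age, dose, timing or how many mice made up a sample, so a p-value here reflects only how far these 6 samples differ among themselves. Values are log2 signals made by RMA, a method that corrects background, equalises the arrays and summarises each probe set, and array medians lay between 6.57 and 6.64. RMA signals are relative, and in sorted bulk cells fewer cells of a type and less RNA per cell cannot be told apart.

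Oxidative phosphorylation takes place on the inner mitochondrial membrane. Complexes I and II pass electrons from NADH and succinate to ubiquinone, complex III passes them on to cytochrome c, and complex IV passes them to oxygen. Complexes I, III and IV pump protons, and ATP synthase uses the returning protons to make ATP. Most subunits are encoded in the nucleus, and a small number in mitochondrial DNA. Resting T cells draw much of their ATP from this pathway, activated T cells add glycolysis to it, and memory and regulatory T cells are known for a large reliance on mitochondrial respiration.

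The comparison of HDM with PBS asked whether transcripts of these complexes differed after allergen treatment. Subunit transcripts lay at nearly the same level in both groups. With limma at an adjusted p below 0.05, 0 of the 80 genes were higher and 0 lower in HDM, where 2.39% of all genes tested were higher and 1.56% lower. The lowest adjusted p among the 80 genes was 0.0818, for Cox7a2l. At an unadjusted p below 0.05, 5 were higher (6.25%, against 8.67% of all genes) and 1 was lower (1.25%, against 9.17%). Of the 80 genes, 70 lay above the median signal of all genes. Among the 11090 genes above that median, 12.9% were higher and 15.6% lower at an unadjusted p below 0.05. The median difference of the 80 genes was 0.03 on the log2 scale, with a range from −0.36 to 0.45, and the median over all genes was −0.01. Differences were positive in 51 of the 80 genes and negative in 29.

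For the probe set used of each gene, the fit also gave a 95% interval of the difference, taken gene by gene without adjustment over the 80. This interval lay within 2-fold either way for all 80 genes and within 1.5-fold for 76 of them. Over all 22180 genes it lay within 2-fold for 21080 and within 1.5-fold for 17899. Of the 11090 genes above the median signal these were 10220 and 7969. Other probe sets of these genes are not covered by these intervals. The second probe set of Atp5d, at a mean signal of 10.20, differed by 0.31 ± 0.40 (SE). The 4 wider intervals belonged to Cox7a1 (0.18 to 0.73 on the log2 scale), Atp5l (−0.02 to 0.77), Cox7c (−0.85 to 0.21) and Ndufb11 (−0.65 to 0.14). The limit of 1.5-fold was chosen after the values were seen. The plot of differences by complex shows every interval, and the plot against mean signal places the subunit genes near the zero line among all genes.

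**Figure D1:**
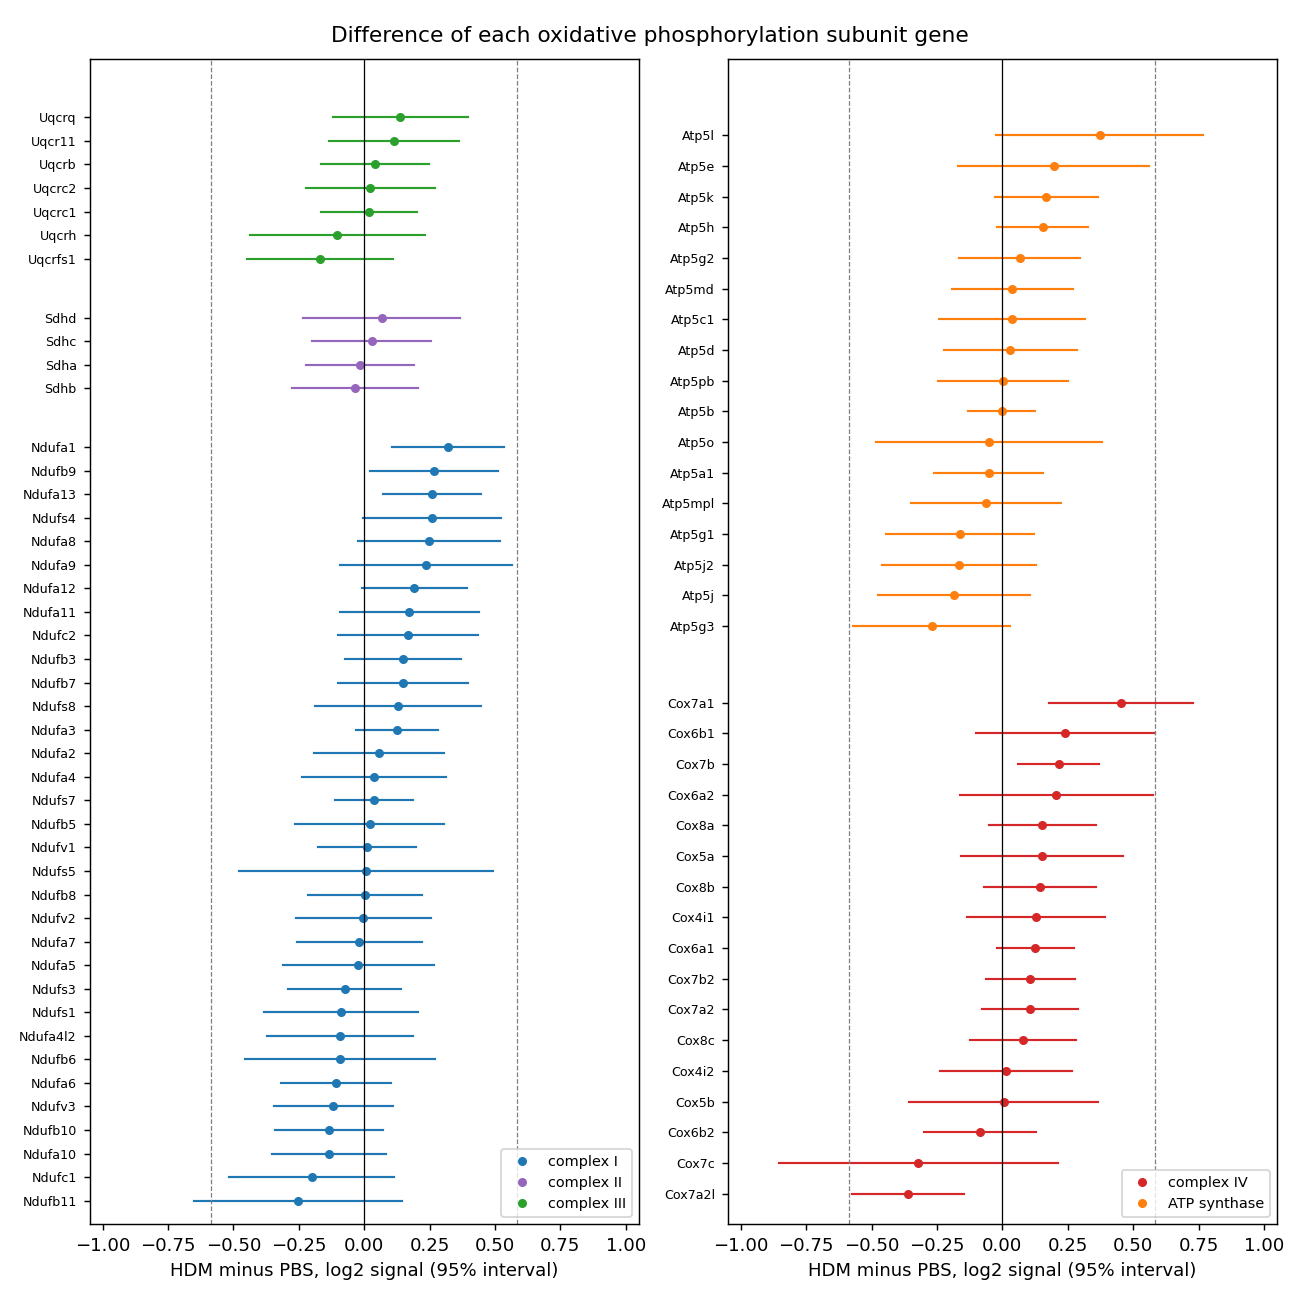
Difference between HDM and PBS arrays of each of the 78 subunit genes on the log2 scale (points) with its 95% interval from limma (lines), n = 3 arrays per group, grouped by complex; dashed lines mark 1.5-fold either way. Points run from −0.36 (Cox7a2l) to 0.45 (Cox7a1), and 6 intervals leave out 0.

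**Figure D2:**
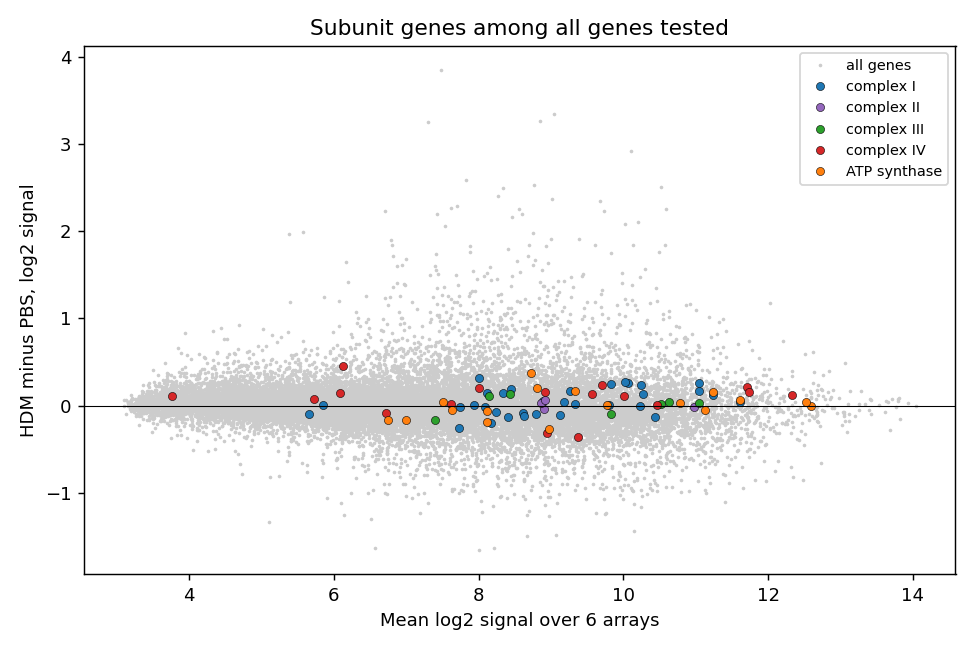
Mean log2 signal over the 6 arrays (horizontal) against the difference HDM minus PBS on the log2 scale (vertical) for all 22180 genes (grey) and for the subunit genes (coloured by complex). The subunit genes stay between −0.36 and 0.45, while all genes span −1.66 to 3.85.

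Deviations from the group means correlated positively over all genes between arrays of the same replicate number, at 0.43, 0.17 and 0.53, so the fit was repeated with the number as a block. PBS replicate 1 and HDM replicate 2, of different numbers, correlated at 0.25, above the 0.17 of the pair numbered 2. In that fit 3 of the 80 genes rose (3.75%) and 1 fell (1.25%), where 5.95% of all genes rose and 6.01% fell. Ndufa1, Cox7a1 and Cox7b rose and Cox7a2l fell. In 12 of the 80 genes every HDM value lay above every PBS value (15% of members, 10.8% of all genes), and in 3 every HDM value lay below (3.75% of members, 11.8% of all genes). Among genes above the median signal, where most members lie, these shares were 14.8% and 18.4%. With the block 10.5% of those brighter genes rose and 11.1% fell. The 12 were Ndufa1, Ndufa3, Ndufa8, Ndufa12, Ndufa13 and Ndufb9 of complex I, Cox6a1, Cox7a1, Cox7a2 and Cox7b of complex IV, and Atp5h and Atp5k of ATP synthase. The 3 were Ndufb10, Cox7a2l and Atp5g3.

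Cox7a2l had the most negative difference of the 80. It encodes a relative of the COX7A subunit that helps join complexes III and IV into supercomplexes. Its log2 signal was 9.46, 9.67 and 9.51 in PBS replicates 1 to 3 and 9.18, 9.13 and 9.25 in HDM replicates 1 to 3. All HDM arrays lay below all PBS arrays. The difference was −0.36 ± 0.09 (SE, n = 3 per group, limma adjusted p = 0.0818), a PBS signal 1.28 times that of HDM, and it ranged from −0.40 to −0.30 when any array was left out. The gene fell with the replicate block (adjusted p = 0.033), when genes under the median signal were left out (0.0439), with array weights (0.033) and without both arrays numbered 3 (−0.41, 0.0339). These settings called 1185 to 2653 genes over all, against 876 in the fit without a block or filter. With any single array left out Cox7a2l did not pass (adjusted p from 0.0655 to 0.298). It also did not pass after repeated quantile normalization (0.0811) or median centring (0.0933).

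The other members of the COX7A family were higher in HDM arrays, neither past the threshold without the block. Cox7a1, the form known from heart and skeletal muscle, had signals of 5.85, 5.97 and 5.90 in PBS and 6.14, 6.57 and 6.36 in HDM. The groups did not overlap, and HDM replicate 2 was the highest array. Its difference of 0.45 ± 0.12 (SE, n = 3 per group) missed the limma threshold (adjusted p = 0.0859, 0.0279 with the replicate block). These signals lie at or below the array medians, and with no detection call used here it is not known whether they stand above background. Cox7a2, the form found in most tissues, had means of 9.95 ± 0.07 (SD, n = 3) in PBS and 10.06 ± 0.04 in HDM, with a difference of 0.11 ± 0.08 (SE, limma adjusted p = 0.568).

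**Figure D3:**
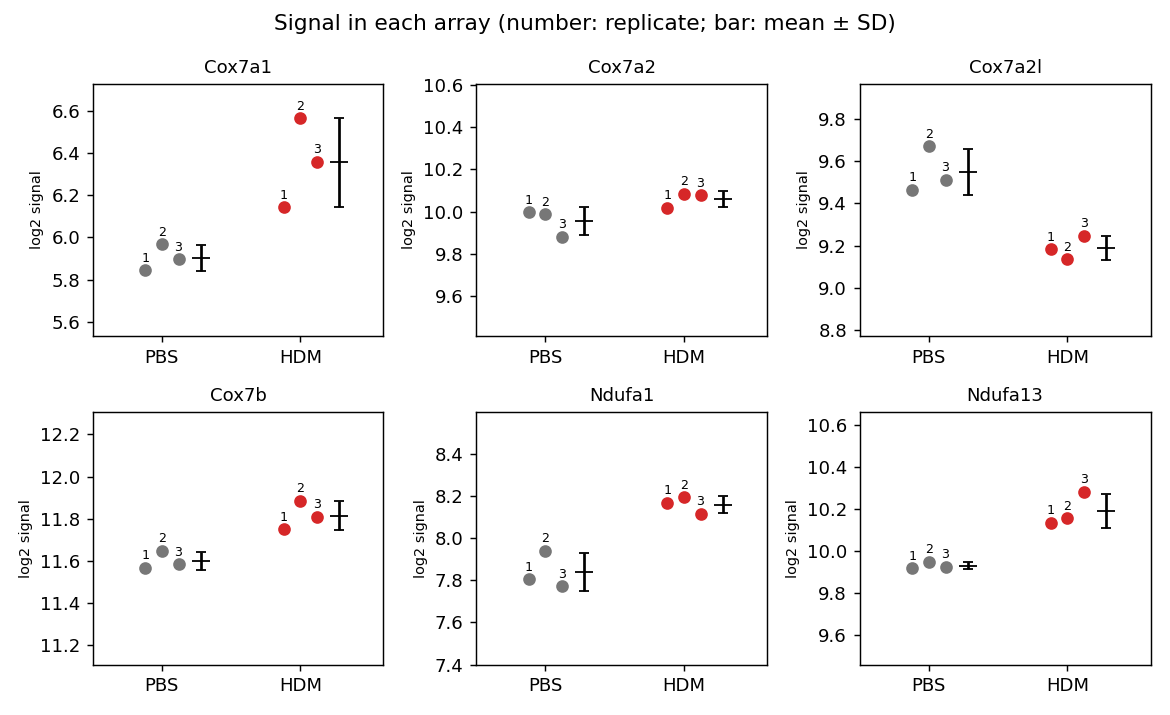
Log2 signal in each array (points, numbered by replicate) with the group mean ± SD (bars, n = 3) for the 3 genes of the COX7A family and for Cox7b, Ndufa1 and Ndufa13; each vertical axis spans the same range of 1.2 log2 units around the gene's mean. HDM points lie above PBS points in 5 panels and below them for Cox7a2l.

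Complex IV, cytochrome c oxidase, had the widest range of differences among the 5 complexes. Of its 17 genes 14 were higher in HDM arrays and 3 lower, the median difference was 0.13, and 0 passed without the block. Cox7b, a small accessory subunit, measured 11.57, 11.65 and 11.58 in PBS and 11.75, 11.89 and 11.81 in HDM, without overlap. Its difference was 0.22 ± 0.07 (SE, limma adjusted p = 0.134, 0.0365 with the block). A second, dimmer probe set of Cox7b pointed the other way (−0.45 ± 0.15, adjusted p = 0.16 over all probe sets), so the direction for this gene depends on the probe set. Cox7c, another accessory subunit, had 9.24, 9.47 and 8.60 in PBS and 8.86, 9.01 and 8.48 in HDM. Here both arrays numbered 3 were the low ones of their groups, and the groups overlapped. Its difference was −0.32 ± 0.23 (SE, adjusted p = 0.544), and it fell without both arrays numbered 3 (−0.42, adjusted p = 0.0452).

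None of the remaining subunits of complex IV passed with or without the block. Cox6a1, an accessory subunit, differed by 0.13 ± 0.06 (SE, limma adjusted p = 0.364), with 12.27 ± 0.03 (SD, n = 3) in PBS and 12.39 ± 0.09 in HDM. Cox4i1, the regulatory subunit found in most tissues, differed by 0.13 ± 0.11, Cox5a by 0.15 ± 0.13 and Cox5b by 0.00 ± 0.16 (SE). The accessory subunits Cox6b1 and Cox8a differed by 0.24 ± 0.15 and 0.15 ± 0.09 (SE, adjusted p = 0.468 and 0.434). The muscle, heart, lung and testis forms gave 0 calls without the block and 1 with it, Cox7a1. Cox4i2, the form known for oxygen sensing in lung and airway, stayed at 7.62 ± 0.16 (SD, n = 3) in PBS and 7.63 ± 0.06 in HDM. Cox6a2, a muscle form, differed by 0.21 ± 0.16 (SE, adjusted p = 0.577), and HDM replicate 3 was the high array, at 8.48, while HDM replicate 1 stood at 7.86 among the PBS arrays. Cox8b, another muscle form, differed by 0.14, and the testis forms Cox6b2, Cox7b2 and Cox8c differed by −0.09, 0.11 and 0.08.

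Complex I, the NADH dehydrogenase, is built from core subunits that carry out electron transfer and from accessory subunits around them. The 6 core genes measured (Ndufs1, Ndufs3, Ndufs7, Ndufs8, Ndufv1 and Ndufv2) had a median difference of 0.00 and a range from −0.09 to 0.13. Among them Ndufs7, an iron-sulfur subunit, stood at 11.59 ± 0.06 (SD, n = 3) in PBS and 11.63 ± 0.01 in HDM. The 26 accessory genes had a median of 0.05, ranged from −0.25 to 0.32, and were positive in 17. Whether core and accessory genes differ was not tested.

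Ndufa1, an accessory subunit of the membrane arm, had the largest difference in complex I. It measured 7.80, 7.94 and 7.77 in PBS and 8.17, 8.19 and 8.12 in HDM, and the groups did not overlap. The difference was 0.32 ± 0.09 (SE, n = 3 per group, limma adjusted p = 0.113, 0.0459 with the block), or 1.25-fold. Ndufa13, an accessory subunit also known as GRIM-19, measured 9.92, 9.95 and 9.93 in PBS and 10.13, 10.16 and 10.28 in HDM. That separation came with a tight PBS group (SD 0.0155), and the difference of 0.26 ± 0.08 did not pass (SE, limma adjusted p = 0.135, 0.0516 with the block). Ndufb9, a membrane-arm accessory subunit, differed by 0.27 ± 0.11 (SE, adjusted p = 0.234). Ndufa12, an accessory subunit of the matrix arm, differed by 0.19 ± 0.09 (SE, adjusted p = 0.305), and its second probe set by −0.01. Ndufa4l2, a hypoxia-induced relative of Ndufa4, differed by −0.09 ± 0.12 (SE, adjusted p = 0.771). Ndufa4 itself differed by 0.04; it is counted here by its name, and its protein is now placed in complex IV.

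Complex II, succinate dehydrogenase, links the tricarboxylic acid cycle to the chain and is built from nuclear genes alone. Its 4 genes had the narrowest range of differences among the 5 complexes, between −0.04 and 0.07. Sdha, the flavoprotein that oxidises succinate, stood at 10.98 ± 0.10 (SD, n = 3) in PBS and 10.97 ± 0.11 in HDM. Sdhb, the iron-sulfur subunit, differed by −0.04 ± 0.10 (SE, limma adjusted p = 0.913). The membrane anchors Sdhc and Sdhd differed by 0.03 ± 0.10 and 0.07 ± 0.13 (SE, adjusted p = 0.93 and 0.859). The 95% intervals of these 4 genes reached from −0.28 (Sdhb) to 0.37 (Sdhd).

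Complex III, the cytochrome bc1 complex, gave 5 positive and 2 negative differences and a median of 0.02. Uqcrc2, a core protein, stood at 11.03 ± 0.15 (SD, n = 3) in PBS and 11.06 ± 0.15 in HDM. Uqcrfs1, the Rieske iron-sulfur protein, measured 7.63, 7.54 and 7.29 in PBS and 7.32, 7.44 and 7.19 in HDM. The groups overlapped, replicate 3 was the lowest array of each, and the difference was −0.17 ± 0.12 (SE, limma adjusted p = 0.544). The small subunits Uqcrq and Uqcr11 differed by 0.14 ± 0.11 and 0.11 ± 0.11 (SE, adjusted p = 0.6 and 0.667).

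ATP synthase consists of the catalytic F1 head on a rotating stalk, a ring of c subunits in the membrane, a peripheral stalk and small membrane subunits. Of its 17 genes 9 differed upward and 8 downward, with a median of 0.00 and 0 calls with or without the block. Atp5b, the catalytic beta subunit, measured 12.59 ± 0.04 (SD, n = 3) in PBS and 12.59 ± 0.04 in HDM, and its 95% interval of −0.13 to 0.12 was the narrowest of the 80. Atp5a1, the alpha subunit, differed by −0.05 ± 0.09 (SE, limma adjusted p = 0.837). Atp5e, the epsilon subunit of the rotating stalk, differed by 0.20 ± 0.16 (SE, adjusted p = 0.597).

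The 3 genes Atp5g1, Atp5g2 and Atp5g3 encode the same mature c subunit with different import sequences, and they pointed in different directions (−0.16, 0.07 and −0.27). Atp5g3 measured 9.07, 9.37 and 8.89 in PBS and 8.85, 8.87 and 8.79 in HDM. The groups just failed to overlap, and the difference was −0.27 ± 0.13 (SE, limma adjusted p = 0.332). Atp5l, subunit g at the dimer interface, measured 8.81, 8.57 and 8.22 in PBS and 8.72, 9.13 and 8.87 in HDM. PBS replicate 3 was its lowest array and the groups overlapped, with a difference of 0.37 ± 0.17 (SE, adjusted p = 0.31). Atp5j2, the membrane subunit f, differed by −0.17 ± 0.13 (SE, adjusted p = 0.576). Atp5h, subunit d of the peripheral stalk, differed by 0.15 ± 0.08 (SE, adjusted p = 0.342), and its second, dimmer probe set by −0.31 ± 0.17.

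The set also differed from array to array within a group. HDM replicate 2 held the highest of the 6 values in 36 of the 78 subunit genes, and PBS replicate 3 held the lowest in 21. Such counts were not made over all genes. The median deviation of subunit genes from their own means was 0.089 in HDM replicate 2 and −0.084 in PBS replicate 3. Over all genes it was 0.008 and −0.004. The mean over subunit genes was 9.08, 9.13 and 9.02 in PBS and 9.06, 9.18 and 9.10 in HDM, so the groups overlapped. Taken by replicate number, HDM minus PBS had medians over the 80 genes of −0.02, 0.08 and 0.08 in pairs 1, 2 and 3. Over all genes these medians were −0.02, 0.01 and −0.01. In complex IV the median was 0.02, 0.11 and 0.14 in these pairs, and in ATP synthase it was −0.09, 0.04 and 0.07. The same sign in all 3 pairs was found in 22 genes upward (27.5%, against 21.6% of all genes) and 10 downward (12.5%, against 24.1%). Among genes above the median signal these shares were 26.7% and 33.8%.

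**Figure D4:**
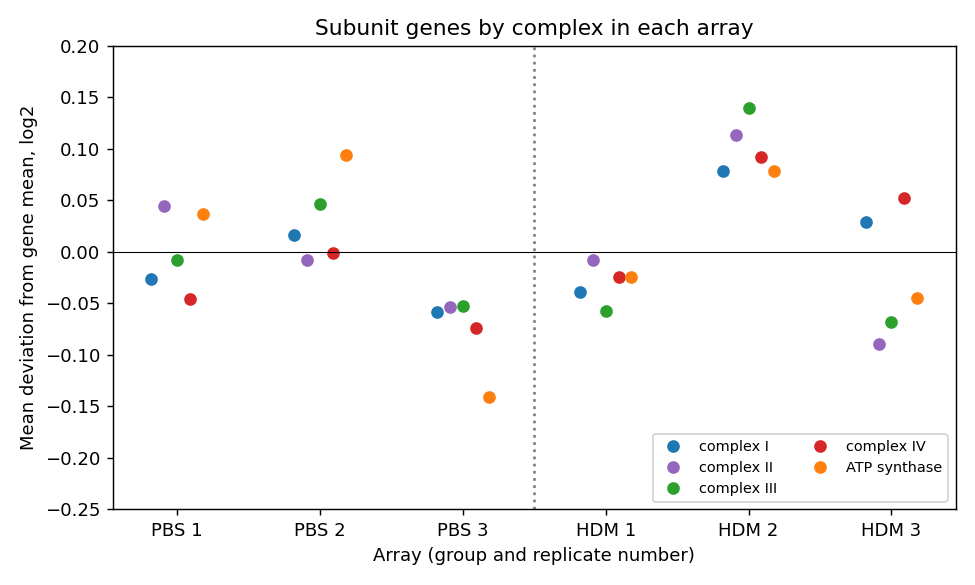
Mean deviation of the subunit genes of each complex from their own means over the 6 arrays (log2 units, 1 point per complex and array), with PBS arrays on the left and HDM arrays on the right of the dotted line. All 5 complexes lie above 0 in HDM replicate 2 and below 0 in PBS replicate 3 and HDM replicate 1.

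Short sequence motifs were looked for in the promoters of subunit genes, because coordinated control of this gene set is known to act through them. NRF1 (nuclear respiratory factor 1), GABP (an ETS family protein) and YY1 are transcription factors of nuclear genes for mitochondrial proteins. Windows of 300 bases, from 250 before to 50 after a start site in RefSeq (GRCm38.p6), were found for 64 of the 78 subunit genes, 69 windows in all. The letters GCATGCGC of the NRF1 core stood on either strand in 14.5% of the 69 windows, against 2.71% of all 32851 windows and 3.52% of those of protein-coding genes. The ETS core CCGGAAG stood in 24.6%, against 8.86% of all windows and 11.6% of protein-coding ones. The YY1 core AAGATGGC stood in 13%, against 2.75% and 3.05%. At least 1 of these was found in 30 of the 64 genes and none in 34, and no motif contains another. A match is a description of the letters only.

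Of the windows below, those of Sdhb, Cox6a1 and Atp5l hold both the NRF1 and the ETS letters, and those of Cox7a1 and Cox7a2l hold none of the 3 motifs. Cox7a1 had the highest difference of the 80 genes, Atp5l the second highest and Cox7a2l the lowest. The windows shown were picked by hand, so they cannot show whether motifs and differences go together. Capitals mark the matches, and each sequence reads from 5′ to 3′ on the strand of the gene. Sdhb lies at chr4:140961021-140961320 on the plus strand, Cox6a1 at chr5:115348909-115349208 on the minus strand and Atp5l at chr9:44920693-44920992 on the minus strand. Cox7a1 lies at chr7:30183921-30184220 on the plus strand and Cox7a2l at chr17:83514284-83514583 on the minus strand.
Sdhb: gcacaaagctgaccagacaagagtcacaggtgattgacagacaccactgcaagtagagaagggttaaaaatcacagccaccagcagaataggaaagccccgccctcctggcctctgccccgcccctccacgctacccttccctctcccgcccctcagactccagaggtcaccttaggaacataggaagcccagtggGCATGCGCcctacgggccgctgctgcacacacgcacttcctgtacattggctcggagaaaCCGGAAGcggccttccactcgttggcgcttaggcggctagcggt
Cox6a1: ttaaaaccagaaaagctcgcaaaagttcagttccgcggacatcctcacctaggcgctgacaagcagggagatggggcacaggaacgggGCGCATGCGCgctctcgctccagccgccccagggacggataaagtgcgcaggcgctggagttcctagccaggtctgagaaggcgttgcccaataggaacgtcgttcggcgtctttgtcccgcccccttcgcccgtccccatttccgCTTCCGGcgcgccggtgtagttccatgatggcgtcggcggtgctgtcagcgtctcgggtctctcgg
Atp5l: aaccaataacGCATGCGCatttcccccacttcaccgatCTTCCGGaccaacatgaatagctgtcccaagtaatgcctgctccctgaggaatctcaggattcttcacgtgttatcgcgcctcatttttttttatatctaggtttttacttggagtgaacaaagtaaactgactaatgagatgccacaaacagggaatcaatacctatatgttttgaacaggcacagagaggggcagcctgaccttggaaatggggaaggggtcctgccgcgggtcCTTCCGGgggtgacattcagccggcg
Cox7a1: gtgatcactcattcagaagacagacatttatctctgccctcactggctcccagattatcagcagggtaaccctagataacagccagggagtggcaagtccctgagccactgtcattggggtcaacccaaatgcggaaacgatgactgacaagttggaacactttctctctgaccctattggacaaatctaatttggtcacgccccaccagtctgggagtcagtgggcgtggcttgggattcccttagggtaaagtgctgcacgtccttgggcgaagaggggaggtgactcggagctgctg
Cox7a2l: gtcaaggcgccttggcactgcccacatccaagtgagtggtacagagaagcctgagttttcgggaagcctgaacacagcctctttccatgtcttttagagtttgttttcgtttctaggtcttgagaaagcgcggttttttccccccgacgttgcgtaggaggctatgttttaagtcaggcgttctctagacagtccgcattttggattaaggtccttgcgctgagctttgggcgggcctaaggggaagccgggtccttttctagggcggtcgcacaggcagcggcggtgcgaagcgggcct

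In Sdhb the NRF1 letters begin 54 bases before the start site and the ETS letters at base 7 after it. In Cox6a1 the NRF1 letters stand on both strands of one palindrome. The 30 genes with at least 1 motif had a median difference of 0.09, from −0.20 to 0.37, with 22 positive and 8 negative. The 34 genes with none had a median of 0.01, from −0.36 to 0.45, with 18 positive and 16 negative. These ranges overlap widely, and whether the medians differ was not tested.

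Subunits encoded in mitochondrial DNA stood outside the symbol patterns and were read beside the nuclear genes. The 10 measured (ND1 to ND6, ND4L, CYTB, COX1 and COX3) had differences between −0.10 (ND3) and 0.11 (ND6), a median of 0.05 and 0 calls with or without the block. COX1, the catalytic subunit of complex IV, measured 13.75 ± 0.05 (SD, n = 3) in PBS and 13.83 ± 0.06 in HDM (difference 0.08 ± 0.05 SE, limma adjusted p = 0.491). Cyc1, the cytochrome c1 of complex III, differed by 0.05, Cycs, the mobile cytochrome c, by 0.08, and Ndufab1, the acyl carrier subunit of complex I, by −0.18 ± 0.10 (SE, adjusted p = 0.403).

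Among the 46 assembly factors and regulators of the complexes, 1 rose and 0 fell, where 2.39% and 1.56% of all genes did. The raised gene was Atpif1, which encodes the inhibitor that stops ATP synthase from running backward. It measured 9.56, 9.69 and 9.62 in PBS and 10.01, 10.11 and 10.02 in HDM, without overlap. The difference was 0.42 ± 0.08 (SE, n = 3 per group, limma adjusted p = 0.0348), or 1.34-fold, and ranged over the 3 pairs from 0.39 to 0.45. Ndufaf3, a complex I assembly factor, differed by 0.48 ± 0.12 (SE, adjusted p = 0.0698, 0.0113 with the block). With the block the calls were 3 raised (Atpif1, Ndufaf3 and the complex IV factor Surf1) and 1 lowered (Coa7, a complex IV factor). These are 6.52% and 2.17% of the 46 genes, beside 5.95% and 6.01% of all genes.

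Of 16 regulators of mitochondrial biogenesis, 0 rose and 1 fell (6.25%, beside 1.56% of all genes and 2.96% of those above the median signal). Of the 16 differences, 3 were positive. The lowered gene was Tfam, the factor that packages mitochondrial DNA and starts its transcription. It measured 8.84, 8.89 and 8.52 in PBS and 8.21, 8.17 and 7.93 in HDM, so the groups did not overlap. The difference was −0.64 ± 0.13 (SE, n = 3 per group, limma adjusted p = 0.0388). Tfb2m, its partner at the mitochondrial promoters, differed by −0.66 ± 0.21 (SE, adjusted p = 0.138, 0.0482 with the block). HDM replicate 3 and PBS replicate 1 of Tfb2m stood level at 9.39. The transcripts of mitochondrial DNA named above did not pass the test in the same arrays. Their median signal was 13.52, near the highest value of any probe set, 14.14. Whether the arrays can show a difference at that level was not tested.

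Of 22 genes of mitochondrial import and carriers, 1 fell (4.55%, beside 1.56% of all genes). It was Hspa9, the matrix chaperone mortalin (−0.39 ± 0.08 SE, limma adjusted p = 0.0378). With the block Slc25a4, an ADP/ATP carrier, also rose (0.32 ± 0.13 SE, adjusted p = 0.223, 0.0335 with the block). Of 71 proteins of the mitochondrial ribosome, 2 fell and 0 rose: Mrps28 (−0.45 ± 0.10 SE, adjusted p = 0.0482) and Mrps30 (−0.42 ± 0.09 SE, adjusted p = 0.047). These are 2.82% of the list, beside 1.56% of all genes. With the block 6 fell (8.45%, beside 6.01% of all genes), and the list's median was −0.07. Among genes above the median signal, 2.96% fell without the block and 11.1% with it. The 5 calls depend on single arrays. With 1 array left out, the adjusted p of Atpif1 ranged from 0.035 to 0.159 and that of Mrps28 from 0.0304 to 0.202, and both passed only without HDM replicate 3. That of Mrps30 ranged from 0.0643 to 0.192 and never passed. Those of Tfam and Hspa9 ranged from 0.0242 to 0.176 and from 0.0465 to 0.184, and passed only without an array numbered 3. With arrays centred on their medians, Atpif1 alone of the 5 kept its call.

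**Figure D5:**
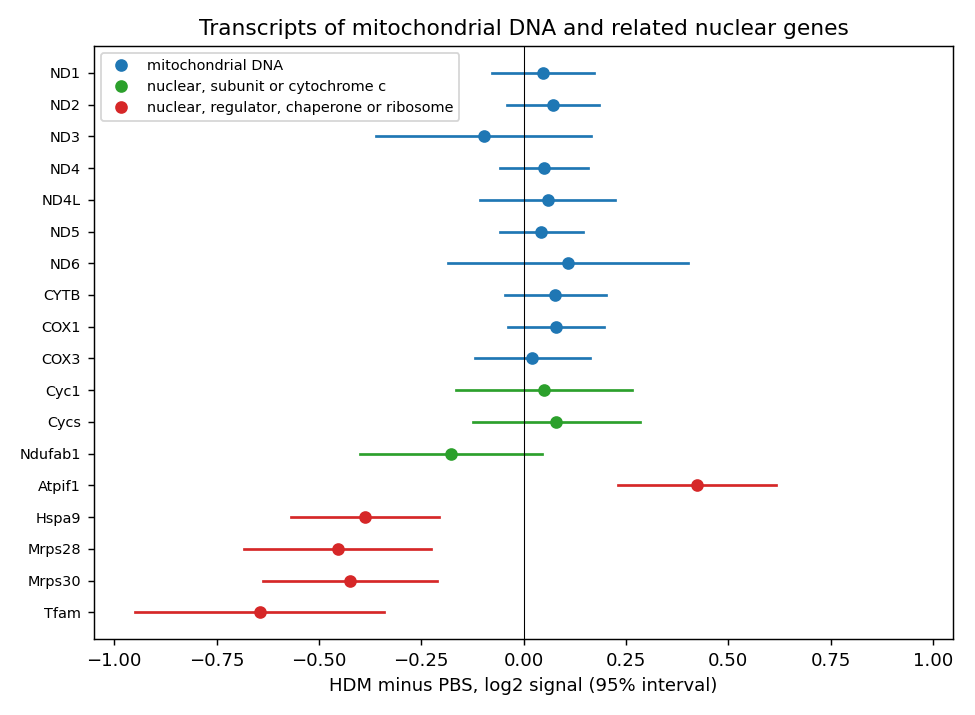
Difference HDM minus PBS on the log2 scale (points) with its 95% interval from limma (lines), n = 3 arrays per group, for 10 transcripts of mitochondrial DNA, 3 nuclear genes of the chain outside the symbol patterns and the 5 related genes that passed. The transcripts of mitochondrial DNA lie between −0.10 and 0.11, while Atpif1 lies at 0.42 and Tfam at −0.64.

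The sorted identity was checked on 9 T cell genes, of which 7 had positive differences and 0 passed without the block. Cd4 measured 12.52 ± 0.07 (SD, n = 3) in PBS and 12.67 ± 0.08 in HDM, and Cd3e 12.82 ± 0.13 and 12.92 ± 0.15, with overlap. Cd3g and Cd5 did not overlap and rose with the block (0.19 ± 0.06 and 0.19 ± 0.06 SE, limma adjusted p = 0.151 and 0.15, 0.0308 and 0.0458 with the block). They are 22.2% of the list, beside 5.95% of all genes that rose with the block. Of 13 macrophage and monocyte genes 0 passed, and Csf1r and Ctss rose with the block (adjusted p = 0.0488 and 0.0191), 15.4% of the list. The log2 of the summed linear signals of the 13 genes was 12.52 to 12.99 in PBS and 12.69 to 13.34 in HDM. The brightest genes weigh most in such a sum. All 8 genes of endothelium and stroma had a lower mean in HDM. The log2 of their summed linear signals was 12.05 to 12.46 in PBS and 11.52 to 12.10 in HDM. Pecam1, with a mean signal of 11.35 where the list's median was 7.39, weighs most in that sum. Pecam1 fell without the block (12.5% of the list, beside 1.56% of all genes). With the block 4 of the 8 fell (50%, beside 6.01% of all genes): Pecam1, Cdh5, Kdr and Pdgfra (adjusted p = 0.00513, 0.00979, 0.0235 and 0.0121). In 8 epithelial genes Cdh1 rose (0.82 ± 0.15 SE, adjusted p = 0.0292), 12.5% of the list beside 2.39% of all genes. Sftpc fell with the block only (−0.40 ± 0.52 SE, adjusted p = 0.777, 0.0177 with the block), 12.5% beside 6.01%. In the cell division list 0 of 19 genes passed, 17 differences were positive, and 6 rose with the block (31.6%, beside 5.95% of all genes). B cell genes gave 0 calls of 7 and granulocyte genes 0 of 10. Of 7 NK and CD8 genes 1 fell (14.3%, beside 1.56% of all genes). It was Gzma (−1.63 ± 0.19 SE, limma adjusted p = 0.00524). The part of these cells in the subunit values was not tested.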

How the data were processed

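Deposited values were log2 signals per probe set that the authors made with RMA, per the submitters' processing notes, which give no version. Of 33960 probe sets, 23521 carried exactly 1 symbol in the platform annotation and gave 22180 genes. For a gene with several probe sets, 9 members among them, the probe set with the highest mean over the 6 arrays was used. HDM was compared with PBS in R 4.3.3 with limma 3.58.1 (lmFit, then eBayes with an intensity trend), two-sided, with Benjamini-Hochberg adjustment over all genes. The fit was tested on simulated data in which arrays varied independently, so correlation between arrays of the same number was not covered. Any 2 arrays shared at most 5 identical values.

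Members, lists and tests were chosen with earlier results of these data known. Named are, in each complex, the 3 genes with the largest difference and those with the highest and lowest signal, all genes of complex II, the tissue forms, genes whose probe sets disagree in sign, and passing genes of the other lists; other members given with values, such as Cox7a2, Cox4i1, Cox6b1, Atp5a1, Atp5g1 and Ndufb11, and those of non-overlapping groups were picked after their values were seen. Residuals (array minus group mean) of a PBS and an HDM array with the same number all correlated above the minimum of 0.1, so blocked values stand beside named genes where they change a call. Of the 6 other pairings PBS 1 with HDM 2 was also above it, so the pairing of numbers 2 is the least clear. The labels do not say what the numbers mean. Alternatives were dim-gene filters, renormalization, other variance models, array weights, other probe set choices, the block, other thresholds and left-out arrays.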

Additional observations from a re-analysis of the deposited data

How the results depend on the processing

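Among the 80 members 0 were called under 14 of 19 alternatives, including each left-out array. Over all members, and over those named, the count was 1 without genes under the median signal, where 70 members remained, and 1 with array weights. It was 4 with the replicate block, 2 at an adjusted p below 0.10 and 2 without both arrays numbered 3. In complex IV these counts were 1, 1, 3, 2 and 2, and in complex I the block gave 1 (Ndufa1). Cox7a2l was called under all 5 of these settings, whose counts over all genes are given below. The block was judged from the data, and it changed no call in complexes II and III or in ATP synthase. The median difference of the members ranged from 0.00 to 0.08 when an array was left out. Of the 31 named members, 10 changed sign in at least 1 alternative.

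Over all genes 876 of 22180 were called, against 1185 of the 11090 tested when genes under the median signal were left out. The count was 1837 with array weights, 2653 with the replicate block, and 1535 and 227 at an adjusted p below 0.10 and 0.01. It was 2576 without both arrays numbered 3 and 218 to 1567 with 1 array left out. In the pathway lists 5 of 169 genes were called, against 8 of 156 without genes under the median signal and 1 after median centring. The count was 11 with array weights, 3 with all probe sets, 14 with the block, and 8 and 0 at the thresholds of 0.10 and 0.01. Without both arrays numbered 3 it was 17, and with 1 array left out it was 0 to 9. The causes were not tested, beyond the fewer genes or samples that some settings use. With 3 arrays per group and no detection call, dim probe sets such as those of the tissue forms may hold little but background, and only RNA was measured.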

Other observations

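Genes of the cytosolic ribosome, another large housekeeping group, mostly had lower means in HDM. Of 80 such genes, after 6 S6 kinase genes taken by the symbol pattern were left out, 65 differences were negative and 15 positive, with a median of −0.14 on the log2 scale. None of them passed the limma threshold (0 higher and 0 lower). At an unadjusted p below 0.05, 23 were lower (28.7%, beside 9.17% of all genes) and 0 higher, and 14 fell with the replicate block (17.5%, beside 6.01%). Every HDM value lay below every PBS value in 24 of the 80 (30%, beside 11.8% of all genes). Among genes above the median signal, 18.4% had every HDM value below, and 15.6% were lower at an unadjusted p below 0.05. Genes of cell division had a median of 0.27 over 19 genes, with 3 at an unadjusted p below 0.05, all higher. These are 15.8% of the list, beside 8.67% of all genes and 12.9% of genes above the median signal.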
